A study of Drosophila melanogaster with 4 samples.

Results

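The genes described here encode the subunits of the Drosophila 26S proteasome and their gene copies. They were chosen by symbol: protein-coding genes whose symbol starts with Rpn or Rpt followed by a digit, or with Prosalpha or Prosbeta. The rule found 48 of the 13945 protein-coding genes on the 6 chromosome arms used. Of these, 32 are the standard subunits, called ubiquitous below, and 16 are paralogs with R or T after the subunit number. The division was made by symbol alone, and no expression was measured.

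The data are peak lists from chromatin immunoprecipitation followed by sequencing (ChIP-seq), which maps DNA recovered with a protein. The protein was CG1233 with GFP fused to its C terminus, expressed stably in 1 transgenic Drosophila melanogaster line. The chromatin was that of entire embryos aged 0 to 24 h, male and female pooled, and it was sheared by sonication to 200 to 800 bp. The 4 biological replicates form 1 group, so no conditions were compared, and the tagged protein's calls come from all embryonic cells together. It is uncertain what was sequenced, since the sample descriptions speak of an input control, while CG1233 stands as the antibody and the assay title is that of a ChIP-seq on a transcription factor. The calls were read as ChIP, and the lists could not settle this. The optimal list, kept by a reproducibility step, held 5211 peaks. The pooled list and each replicate list held 30000 calls, weak background calls included, and each was called against the same control set. Of these calls, 6336 had a −log10 q above 2 in the pooled list, and 6697, 4575, 10424 and 5400 in replicates 1 to 4. Read counts are not part of the lists, which leaves the depth of every library unknown.

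The 26S proteasome degrades proteins marked with ubiquitin. Its 20S core particle is a barrel of stacked alpha and beta rings, with the proteolytic sites on beta subunits and the entry gate formed by alpha subunits. The 19S regulatory particle sits at the barrel's end: its base holds the Rpt ATPases, which unfold substrates, and its lid holds the Rpn11 deubiquitinase. In Drosophila many subunits also have a diverged gene copy, and most of these copies are known for expression in the testis. Prosalpha1R is included among the paralogs by its symbol only.

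Of the 48 genes, 5 had an optimal summit within 500 bp of one of their transcription start sites (TSSs). The DNA at those 5 summits is shown first because it is the sequence the calls point to. It was read from the RefSeq genome of the dm6 assembly, on each gene's own strand, as the unbroken stretch around the summit, at most 60 bases to either side, that holds no exon. Capitals mark TATAAA or its complement TTTATA. The stretches lie at chr3R:5789243-5789328 (Rpn5, plus strand), chr2L:19051688-19051789 (Rpn3, plus), chr2L:5059954-5060074 (Rpn11, minus), chr3R:23752835-23752875 (Rpt5, plus) and chrX:16276008-16276115 (Prosalpha4, plus).
Rpn5: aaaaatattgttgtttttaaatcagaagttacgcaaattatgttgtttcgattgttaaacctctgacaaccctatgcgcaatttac
Rpn3: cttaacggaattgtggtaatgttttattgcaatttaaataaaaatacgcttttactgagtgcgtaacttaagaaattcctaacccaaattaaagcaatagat
Rpn11: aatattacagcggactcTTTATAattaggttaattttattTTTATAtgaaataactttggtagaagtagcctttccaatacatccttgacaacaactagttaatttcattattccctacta
Rpt5: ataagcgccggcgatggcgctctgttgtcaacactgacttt
Prosalpha4: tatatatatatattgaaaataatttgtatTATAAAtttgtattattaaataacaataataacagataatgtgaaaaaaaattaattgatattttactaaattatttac
The Rpt5 stretch has a GC content of 53.7%, and the other 4 have 10.2 to 30.2%. The word TATAAA was found in the stretches of Rpn11 and Prosalpha4. It is a frequent word, present within the 101 bp centred on 1048 of the 5211 optimal summits (20.1%).

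A second set of sequences shows a word found in some of the ubiquitous subunit promoters. The word TATCGATA is the DNA replication-related element, the site of the promoter-binding factor Dref. It was found in 12 of the 32 ubiquitous promoters (37.5%) and in 0 of the 16 paralog promoters, against 9.36% of all coding promoters. A count of 0 of 16 allows a share of up to 18.8%, so the paralogs show no difference from all coding promoters. The sites of 8 of those 12 genes follow with 10 bases on either side, on the gene's strand, with the element in capitals. They lie at chr2L:19051583-19051610 (Rpn3), chr3R:23752820-23752847 (Rpt5), chr3L:16582802-16582829 (Rpn12), chr3R:22462034-22462061 (Rpn7), chr3R:23733419-23733446 (Rpn9), chr2L:10221325-10221352 (Prosalpha6), chr3L:14999931-14999958 (Prosbeta2) and chr3L:16610445-16610472 (Prosbeta6).
Rpn3 site: gttatcggagTATCGATAtcgaaaaggc
Rpt5 site: tcgctgtcacTATCGATAagcgccggcg
Rpn12 site: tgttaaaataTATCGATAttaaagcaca
Rpn7 site: cggtataattTATCGATAattttggggt
Rpn9 site: cccggttaaaTATCGATAttctcgcgga
Prosalpha6 site: ccgaatccctTATCGATAcccgatacac
Prosbeta2 site: catgaatataTATCGATAcaatatcgat
Prosbeta6 site: tatgtataccTATCGATAacgtttaagc
Of the 12 sites, 10 begin upstream of the TSS. The sites of Rpn7 and Rpn9 begin at 3 and 26 bp downstream. Only the Rpn3 and Rpt5 sites belong to genes with an optimal promoter summit.

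Optimal promoter summits of CG1233-GFP were found at a minority of proteasome genes, all of them ubiquitous subunits. In the optimal list 5 of the 48 genes (10.4%, 95% exact Clopper-Pearson interval 3.47 to 22.7%) had a promoter summit, against 19.9% of all protein-coding genes. These were 5 of 32 ubiquitous subunits (15.6%, interval 5.28 to 32.8%) and 0 of 16 paralogs, which allows a share of up to 18.8% by 3 counts of the total, or 20.6% by the exact interval. The interval of the ubiquitous share holds the share of all coding genes, so no difference from it was detectable with 32 genes. In the pooled list 20 of 32 ubiquitous subunits (62.5%, 43.7 to 78.9%) and 1 of 16 paralogs (6.25%) had a promoter call, against 47.8% of all coding genes. The intervals cover counting error only, and neighbouring genes that share a call are not independent.

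The optimal list held more summits at lid genes than at genes of any other subcomplex, which was not so in every replicate. Of its 8 ubiquitous subunits 3 had one, against 1 of 6 base ATPases, 0 of 4 other base subunits, 1 of 7 alpha subunits and 0 of 7 beta subunits. In the pooled list the counts in the same order were 7 of 8, 3 of 6, 3 of 4, 4 of 7 and 3 of 7. Joined into particles, 4 of 18 regulatory particle genes (22.2%) and 1 of 14 core particle genes (7.14%) had an optimal summit, and 13 of 18 (72.2%) and 7 of 14 (50%) a pooled call. All coding genes had 19.9% and 47.8%. Among each replicate's strongest calls, lid genes with a promoter call numbered 0, 4, 2 and 3 of 8 in replicates 1 to 4. Base ATPase genes numbered 2, 1, 3 and 0 of 6, so that replicates 1 and 3 had more at the ATPases. All coding genes had 19.7%, 19.2%, 20.2% and 19.8% by this rule. The mean shares were 28.1 ± 21.3% for lid and 25 ± 21.5% for ATPase genes (SD, n = 4). Both spreads cover the share of all coding genes. In the whole replicate lists 1 to 4, regulatory particle genes with a call numbered 16, 13, 17 and 9 of 18, and core particle genes 7, 4, 9 and 3 of 14. The regulatory share was the higher in each of the 4 replicates, with means of 76.4 ± 20% for regulatory genes and 41.1 ± 19.7% for core genes, against 48.2 ± 4.64% of all coding genes (SD, n = 4). Both particles are small sets of genes, and no test was run between them.

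**Figure D1:**
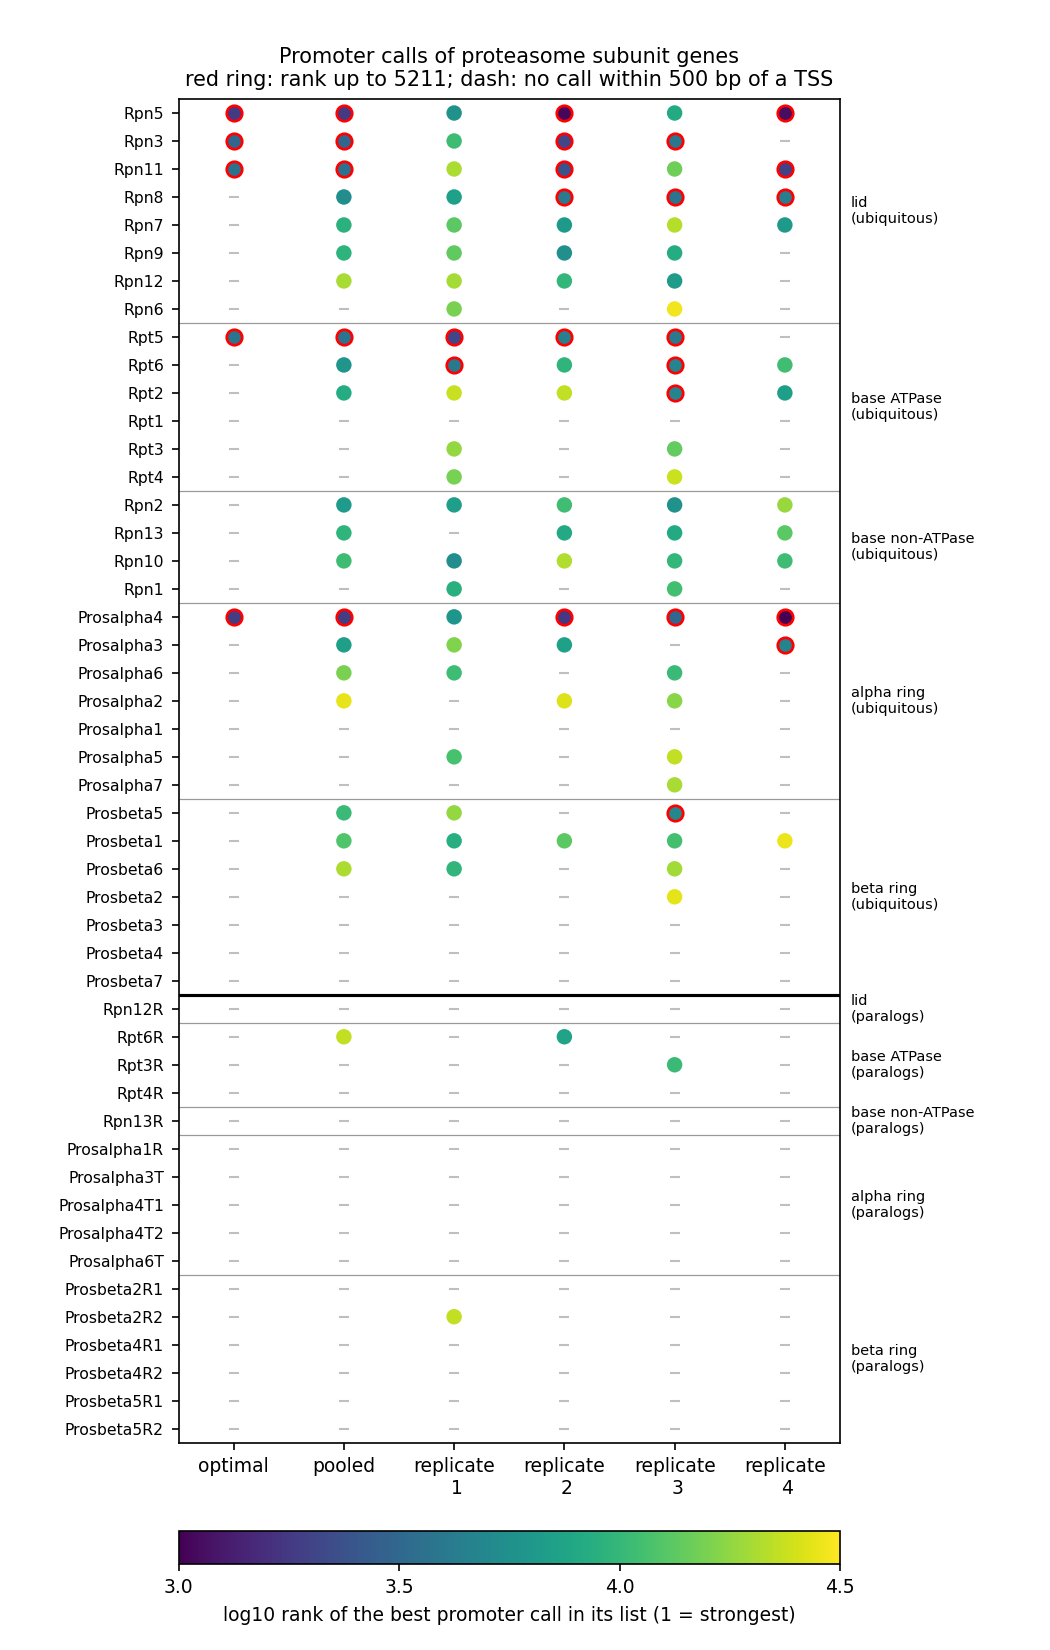
Rank of the best promoter call of each of the 48 genes (rows, grouped by class and subcomplex) in each of the 6 lists (columns). Colour gives the log10 rank, a red ring a rank up to 5211 and a dash no call. The 5 rows with a ring in the optimal column are Rpn5, Rpn3, Rpn11, Rpt5 and Prosalpha4, and the paralog rows at the bottom hold 4 points in all.

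Rpn5 (FBgn0028690), a scaffold subunit of the lid, had the highest ranking promoter peak among the 48 genes. Its optimal peak, on 3R from 5789091 to 5789514, ranked 1805 in the list, with the summit 190 bp upstream of the TSS. Its best calls ranked 5630, 1065, 8164 and 1121 in replicates 1 to 4, so that replicates 2 and 4 placed it far above replicates 1 and 3. The summit lay 81 bp downstream of a TSS of Hat1, a histone acetyltransferase gene on the opposite strand, and closer to it than to Rpn5.

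Rpn3 (FBgn0261396) is another structural lid subunit. Its optimal peak on 2L, from 19051536 to 19051959, ranked 3133, with the summit 42 bp upstream of the nearest of its 2 TSSs. The ranks were 10753, 2062 and 3820 in replicates 1 to 3, and replicate 4 had no call. The opposite gene l(2)37Bb has its TSS within the same window, with the summit 136 bp upstream of it.

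Rpn11 (FBgn0028694) encodes the deubiquitinase that removes ubiquitin chains from substrates. Its optimal peak on 2L, from 5059802 to 5060225, ranked 3627 and had its summit 224 bp upstream of the TSS. The ranks were 20374, 2415, 14797 and 1962 in replicates 1 to 4. As at Rpn5, replicates 2 and 4 gave strong calls and replicates 1 and 3 weak ones, and the replicate 1 summit lay at 428 bp downstream of the TSS. It was the only one of the 5 peaks with no other coding TSS within 500 bp of the summit.

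Rpt5 (FBgn0028684), an ATPase of the base ring, had its best summit closer to the TSS than the best summits of the other 4 genes. The optimal peak on 3R, from 23752655 to 23753078, ranked 3773 with the summit at -9 bp. The ranks were 2052, 4506 and 4112 in replicates 1 to 3, with summits at -7, 2 and -1 bp, and replicate 4 had no call. The TSS of RanBP3, on the opposite strand, also lay close, with the summit 33 bp upstream of it. Its DNA replication-related element, cut off by the exon limit in the stretch shown above, begins 46 bp upstream of the TSS, and Rpt5 was the only one of the 5 genes with this word within the 101 bp centred on the optimal summit.

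Prosalpha4 (FBgn0004066) was the only core particle gene with an optimal summit, and encodes an alpha ring subunit. Its peak on X, from 16275856 to 16276279, ranked 1854 with the summit at -202 bp, and an additional optimal summit of rank 4937 lay at 6 bp. The best calls ranked 6155, 1730, 3097 and 970 in replicates 1 to 4. The stronger summit lay 112 bp downstream of a TSS of kat80, which encodes a katanin subunit and runs the opposite way. Replicate 4 had strongest calls on both sides of the TSS of kat80 nearest to Prosalpha4.

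**Figure D2:**
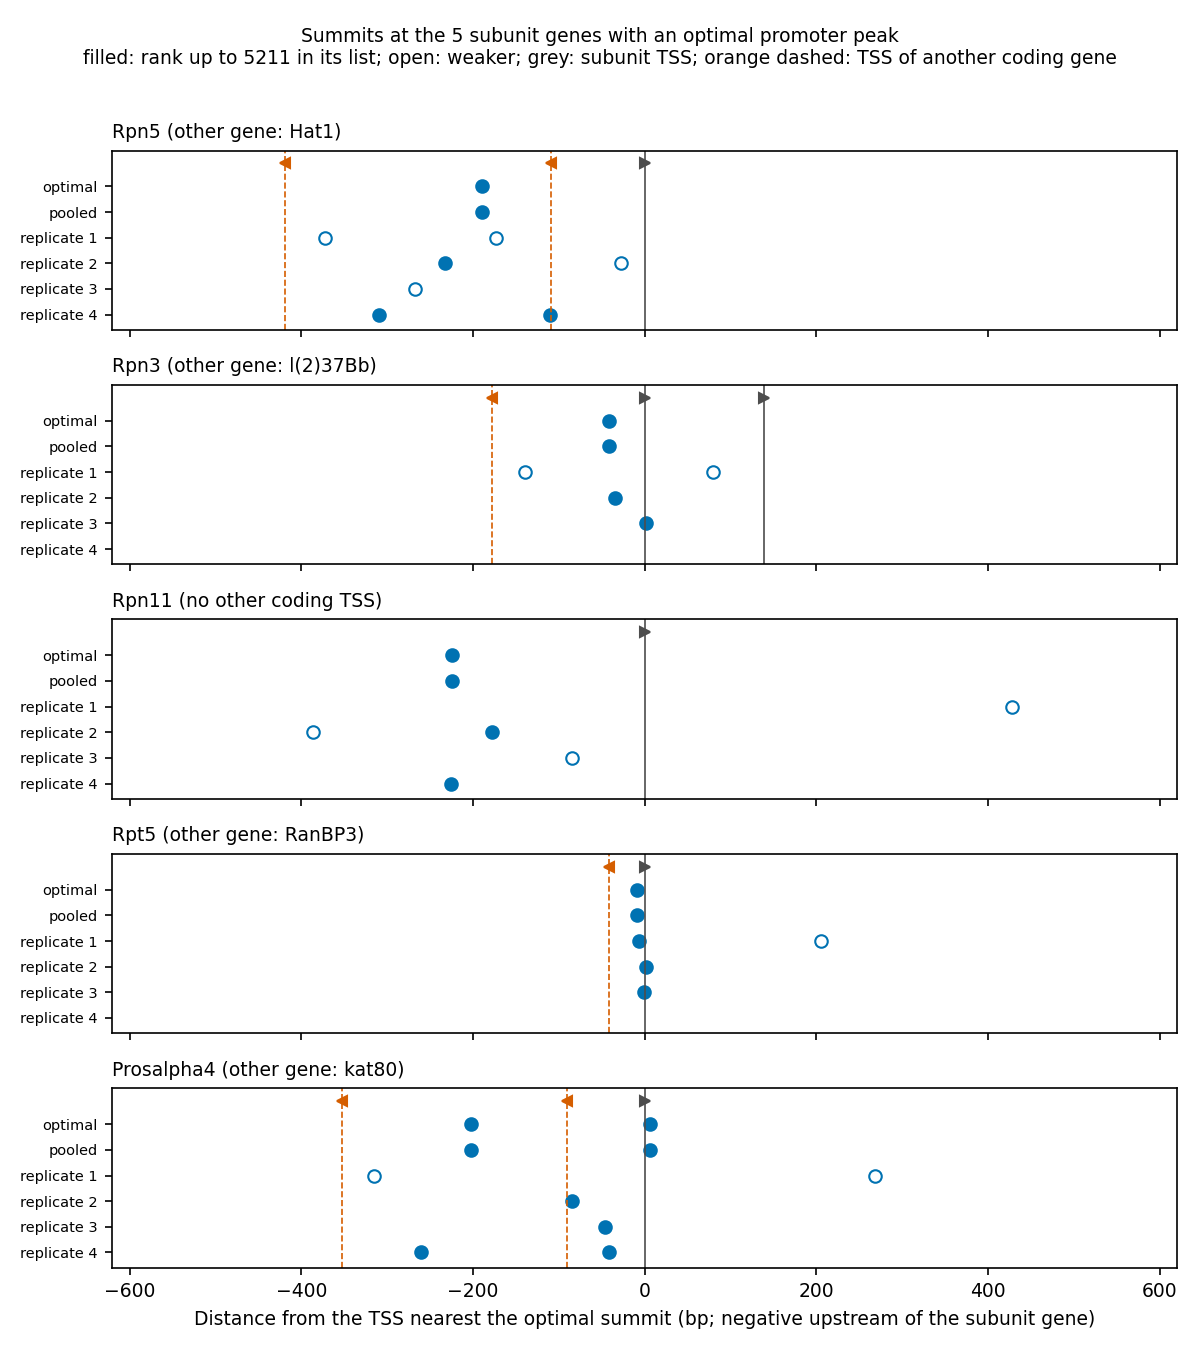
Summits near the 5 genes with an optimal promoter peak, by distance in bp from the gene's TSS (x axis, negative upstream) in each of the 6 lists (y axis). Filled points rank up to 5211 in their list, open points rank lower, grey lines are TSSs of the subunit gene and dashed orange lines TSSs of the opposite gene. The Rpt5 summits of replicates 1 to 3 sit at its TSS, while most of those at Rpn5 lie upstream of it, past the nearer Hat1 TSS and inside Hat1.

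A peak was counted as held by a replicate when a summit of its 5211 strongest calls lay inside. Held by all 4 replicates were the promoter peaks of 0 of the 48 genes, whereas 9.9% of all coding genes had such a peak. Those of Prosalpha4 and Rpt5 were held by 3 replicates, and those of Rpn5, Rpn11 and Rpn3 by 2. Replicate 2 held all 5, and replicate 1 held only that of Rpt5. Strength was also moderate: the median rank of the 5 genes was 3133, against 2160 for all 2779 coding genes with an optimal summit.

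The next subunits in pooled rank lay just below the optimal list, which ends at pooled rank 5211. Rpn8, the partner of Rpn11 in the lid, ranked 5357 with the summit at -211 bp, and 6990, 4069, 3755 and 4265 in replicates 1 to 4. It was thus among the strongest calls of replicates 2, 3 and 4. Rpt6, an ATPase of the base, ranked 6033 with the summit at -35 bp, and 4041, 9438, 4754 and 11002 in the replicates. Rpn2, a large scaffold of the base, ranked 6602 with the summit at -124 bp, and 6833, 10932, 5680 and 18680 in the replicates. Prosalpha3 of the alpha ring ranked 6959 with the summit at -66 bp, had ranks of 16451, 7145 and 4681 in replicates 1, 2 and 4, and had no call in replicate 3. Rpt2, another base ATPase, ranked 8319 with the summit at -41 bp, and 23731, 22809, 4816 and 6916 in the replicates. The pooled summits of Rpn2, Prosalpha3 and Rpt2 were shared with the opposite genes Slbp, dgt3 and CG13599, whose TSSs lay farther off. In replicates 1, 3 and 4 the Slbp TSS was closer than that of Rpn2. The pooled Rpt6 summit had no other coding TSS within 500 bp. Rpn8 and Rpt6 passed a −log10 q of 2 in the pooled list. With the 5 optimal genes they made 7 of 32 ubiquitous subunits and 0 of 16 paralogs at that threshold, against 23% of all coding genes.

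At the other end, 5 ubiquitous subunits had no call within 500 bp of a TSS in any of the 6 lists. They are Prosalpha1, Prosbeta3, Prosbeta4 and Prosbeta7 of the core and Rpt1 of the base. The share of all coding genes with no call in any list was not counted. The nearest optimal summit was 3314 bp from Prosalpha1, 8040 bp from Prosbeta3, 4267 bp from Prosbeta4, 3546 bp from Prosbeta7 and 11622 bp from Rpt1. Prosalpha1 and Prosalpha1R are near-identical copies. Over the gene span 1359 of 1376 alignment columns were identical (98.8%). Over the promoter windows of 300 bp each, 283 of 317 columns were identical (89.3%). All other columns in both alignments were gaps and none was a mismatch, so 89.3% does not mean that aligned promoter bases differed. Reads from such copies can be lost or split when mapped, and neither copy had a call, so both are uncertain. The proteolytic subunit genes were reached only by weaker calls in the pooled list. Prosbeta1, the caspase-like subunit, ranked 12298 there and Prosbeta5, the chymotrypsin-like subunit, 10427, while Prosbeta2, the trypsin-like subunit, had no pooled call and a single replicate call, of rank 27404 in replicate 3.

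Each replicate's strongest calls reached a minority of the ubiquitous subunits. Among each replicate's strongest 5211 calls, promoter calls of ubiquitous subunits numbered 2, 6, 7 and 5 of 32 in replicates 1 to 4, against 19.7%, 19.2%, 20.2% and 19.8% of all coding genes. As shares these were 6.25%, 18.8%, 21.9% and 15.6%, a mean of 15.6 ± 6.77% (SD, n = 4), against 19.7 ± 0.411% of all coding genes. The spread between replicates covers the gap to all coding genes, and replicate 3 lay above it. Of the 32 genes, 0 had such a call in all 4 replicates and 3 had one in 3 replicates, namely Rpn8, Rpt5 and Prosalpha4. A further 4 (Rpn5, Rpn3, Rpn11 and Rpt6) had one in 2 replicates, 3 (Rpt2, Prosalpha3 and Prosbeta5) in 1, and 22 in none. Recurrence over replicates was not counted for all coding genes, so whether it is low or high here cannot be told.

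With the whole replicate lists, 23, 17, 26 and 12 ubiquitous subunits had a promoter call in replicates 1 to 4, against 51.9%, 44.6%, 52.5% and 43.8% of all coding genes. The mean share was 60.9 ± 19.5% for ubiquitous subunits and 48.2 ± 4.64% for all coding genes (SD, n = 4). Replicates 1 and 3 had more ubiquitous subunits with a call than replicates 2 and 4. In replicate 4 the ubiquitous share of 37.5% was below that of all coding genes, and in the other 3 it was above. All 4 lists held a call at 10 ubiquitous subunits, and 5 had none in any, counts that were not made for all coding genes. With a −log10 q above 2, the ubiquitous counts were 5, 6, 14 and 5, against 23.8%, 17.8%, 33.5% and 20.2% of all coding genes.

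**Figure D3:**
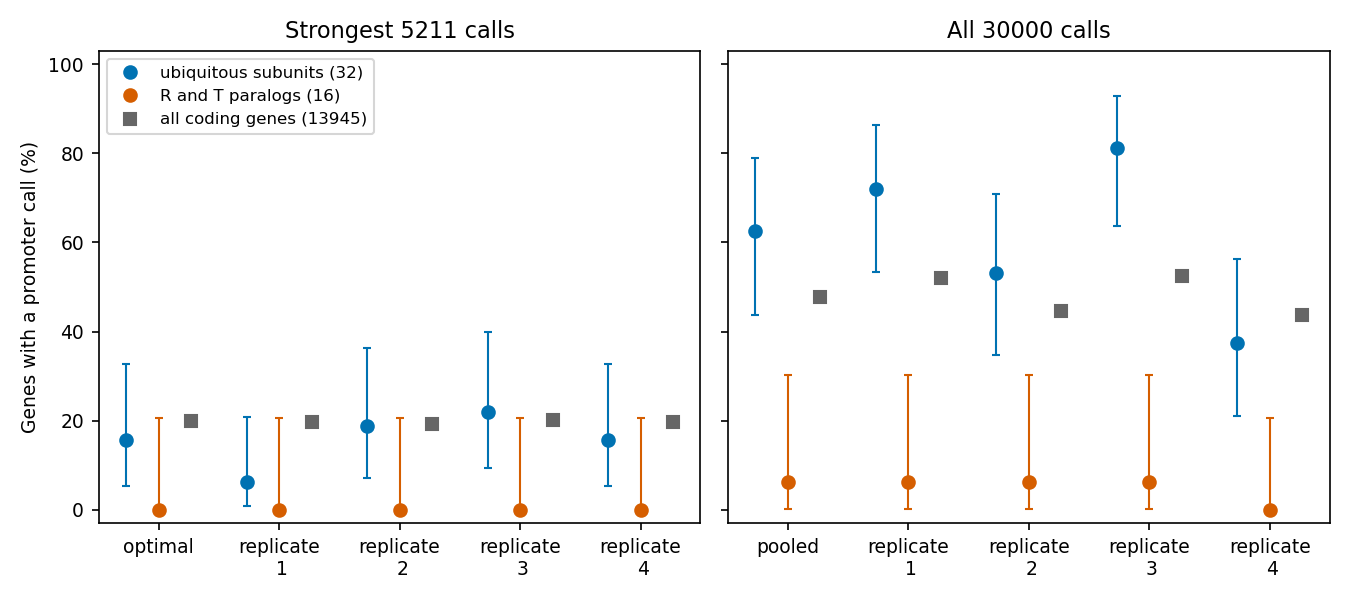
Share of genes with a promoter call (y axis, percent) among each list's strongest 5211 calls (left) and all 30000 calls (right), by list (x axis). Circles are the 32 ubiquitous subunits and the 16 paralogs with 95% exact binomial intervals, and squares are all 13945 coding genes. The paralogs sit at 0 in every list on the left and at or below 6.25% on the right.

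The R and T paralogs were nearly free of calls. Of the 16, 13 had no promoter call in any of the 6 lists, a count that was not made for all coding genes. In each single list 0 or 1 of the 16 had a call. All coding genes had 47.8% in the pooled list and 43.8 to 52.5% in the whole replicate lists. Rpt6R (FBgn0039788), a copy of an ATPase gene of the base, had the only pooled call, of rank 22952, and a call of rank 7372 in replicate 2. Rpt3R (FBgn0037742), another ATPase copy, had 1 call, of rank 10393 in replicate 3 with the summit at -230 bp. Prosbeta2R2 (FBgn0037296), a copy of a proteolytic subunit gene, had 1 call, of rank 23078 in replicate 1 with the summit at -4 bp. None of these calls was among the strongest 5211 of its list, so 0 of 16 paralogs had such a call in each replicate, with the same limits as above. The nearest optimal summit lay 2948 bp (Rpt3R) to 131347 bp (Prosbeta5R2) from the paralogs' TSSs.

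Ubiquitous subunits and paralogs were also set side by side within each replicate. Among the strongest calls the difference, ubiquitous minus paralog, was 6.25, 18.8, 21.9 and 15.6 percentage points in replicates 1 to 4, a mean of 15.6 ± 6.75 points (SD, n = 4). Since the paralog count was 0 in each, this is the ubiquitous share itself and could not be negative, so its sign and its exact two-sided sign-flip permutation p of 0.125, the smallest that 4 replicates allow, support nothing. With the whole lists the difference was 65.6, 46.9, 75 and 37.5 points, a mean of 56.2 ± 17.1 points (SD, n = 4). There the paralogs had 1 call in each of replicates 1 to 3 and 0 in replicate 4, and the exact sign-flip p was again 0.125, so this design cannot reach significance. With a −log10 q above 2 it averaged 21.9 ± 10.5 points, with 1 paralog called in replicate 3 and 0 in the others. These 3 are views of the same calls, and the 4 replicates share 1 control set. The paralogs are also less often beside an opposite gene, as given below, and the part of this in the difference was not tested.

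Most summits lay upstream of the subunit gene, as they did at coding genes in general. The median distance to the nearest own TSS was -190 bp for the 5 optimal genes, against -135 bp for all coding genes with an optimal summit. Positions here are those of the best-ranked summit of each gene. In the optimal list it was upstream at all 5 genes, against 84.5% for all coding genes. The additional Prosalpha4 summit of rank 4937 lay 6 bp downstream. In the pooled list the median was -97.5 bp for 20 ubiquitous subunits, against -101 bp for all coding genes. Of these 20, 18 (90%) were upstream, against 73.4% for all coding genes with a pooled call. The replicates differed: in the whole lists 1 to 4 the median was -14, -104, -24.5 and -237.5 bp for ubiquitous subunits, against -62, -113, -61 and -126 bp for all coding genes. Replicates 1 and 3 lay nearer the TSS than replicates 2 and 4 for both. Upstream summits numbered 15 of 23 (65.2%), 14 of 17 (82.4%), 18 of 26 (69.2%) and 12 of 12. For all coding genes with a call the shares were 64.3%, 75.2%, 65.3% and 75.7%.

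**Figure D4:**
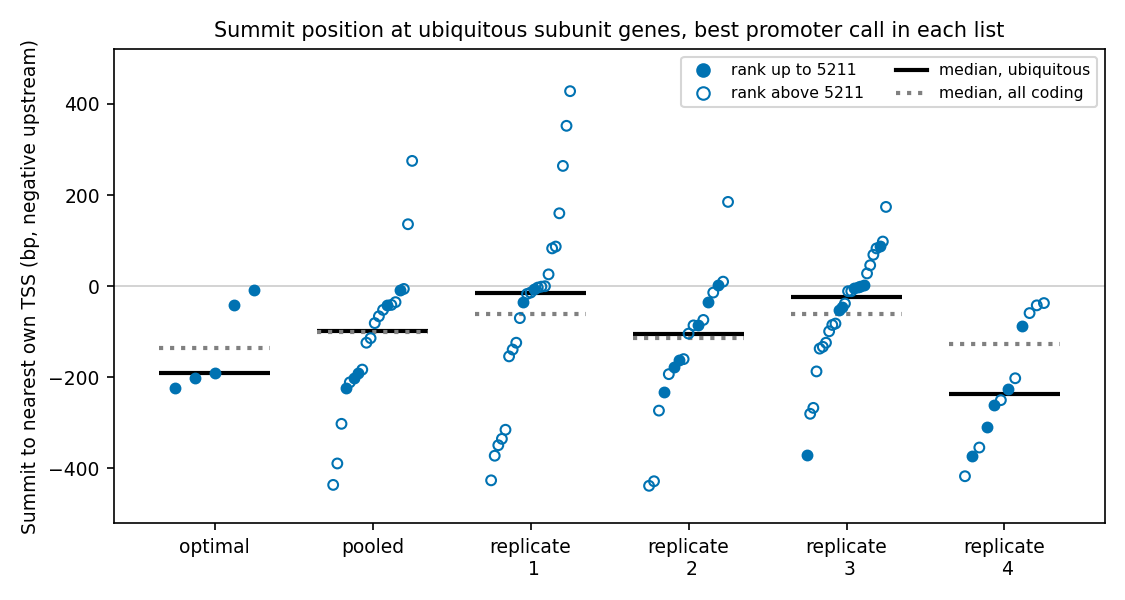
Distance in bp from the nearest own TSS (y axis, negative upstream) of the best promoter summit of each ubiquitous subunit with a call, in each of the 6 lists (x axis). Filled circles rank up to 5211, open circles lower, black bars are medians of ubiquitous subunits and dotted bars those of all coding genes. All 5 optimal and all 12 replicate 4 summits shown lie upstream.

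Ubiquitous subunit genes often stand head to head with another gene. A coding TSS on the opposite strand lay within 1000 bp upstream of 22 of 32 ubiquitous subunits (68.8%) and 4 of 16 paralogs (25%), against 36.2% of all coding genes. Of the 22 paired ubiquitous subunits 4 (18.2%) had an optimal summit, against 34% of paired coding genes. Of the 10 unpaired ubiquitous subunits 1 (10%), Rpn11, had one, against 11.9% of unpaired coding genes. In the pooled list a call was present at 14 of 22 paired (63.6%) and 6 of 10 unpaired subunits (60%), against 64.2% of paired and 38.5% of unpaired coding genes. A summit between paired genes cannot be assigned to 1 of them. At 4 of the 5 optimal genes the summit was shared with another coding gene, and at 2 of these, Rpn5 and Prosalpha4, the other gene's TSS was closer. In the pooled list 14 of 20 calls were shared, with the other TSS closer at 8. Sharing was not counted for all coding genes.

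Words known from promoters of broadly expressed genes were found at ubiquitous subunits and at almost no paralog. Words were searched on both strands from 250 bp before to 50 bp after the 5′-most TSS. TATCGATA was in 12 ubiquitous promoters (37.5%) and 0 of 16 paralog promoters, against 9.36% of all coding promoters. Ohler motif 1 (GGTCACACT), the site of the factor M1BP, was in 5 (15.6%) ubiquitous and 0 paralog promoters, against 6.05% of all. Ohler motif 7 (CATCNCTA) was in 4 (12.5%) ubiquitous and 1 paralog promoter, against 6.42%. At least 1 of these 3 words was in 18 ubiquitous promoters (56.2%) and 1 paralog promoter (6.25%), against 19% of all. The core of the antioxidant response element (TGACNNNGC), the kind of site bound by the stress factor encoded by cnc, was in 5 ubiquitous promoters (15.6%) and 1 paralog promoter, against 8.63%. GAGAG, the core of the GAGA element, ran the other way, in 3 ubiquitous promoters (9.38%) and 6 paralog promoters (37.5%), against 29.7%. TATAAA was in 40.6% of ubiquitous and 31.2% of paralog promoters, against 45.8%. The E-box CAGCTG was in 1 ubiquitous promoter (3.12%) and 1 paralog promoter, against 17.7%, and the E-box CACGTG in none of either class, against 4.2%. A word match is a description of letters, and no binding of these factors was measured.

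**Figure D5:**
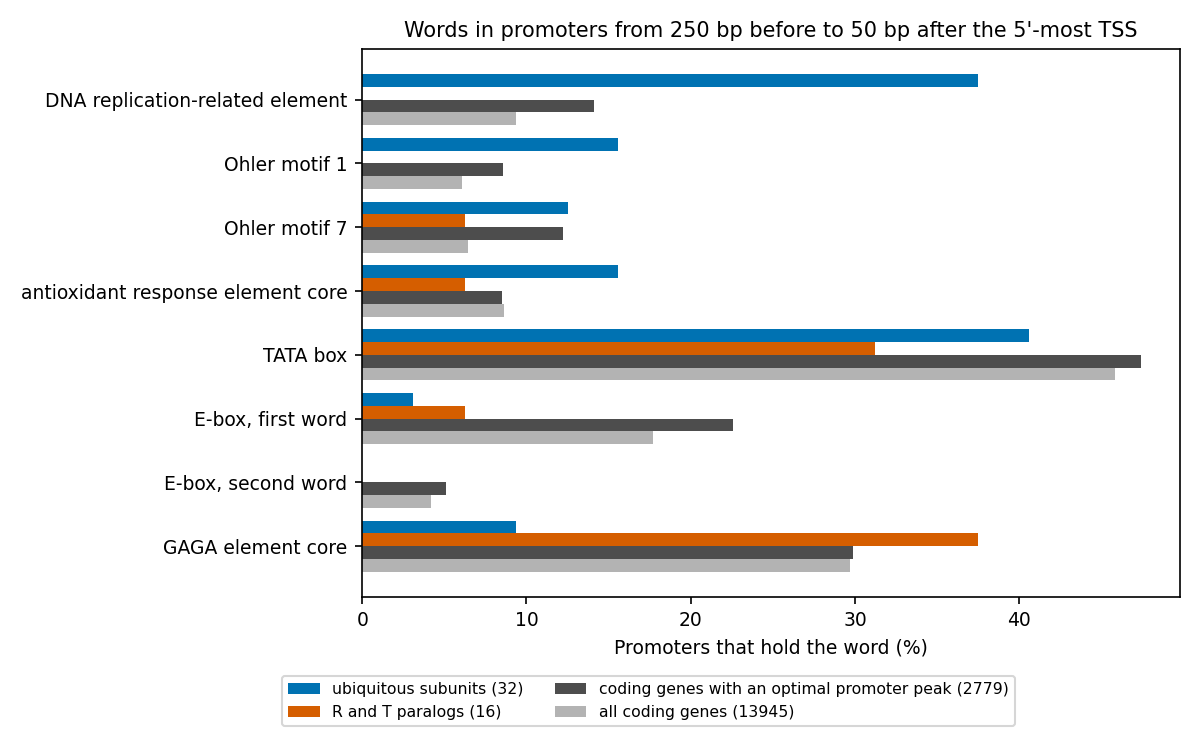
Share of promoters that hold each of 8 words (y axis, by name) in percent (x axis), for ubiquitous subunits, paralogs, coding genes with an optimal promoter peak and all coding genes. The E-boxes are CAGCTG first and CACGTG second. The DNA replication-related element is in 37.5% of ubiquitous and 0% of paralog promoters, and in 14.1% of promoters with an optimal peak.

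Optimal summits were about as frequent at ubiquitous subunits with the DNA replication-related element as at those without it. Of the 12 ubiquitous genes with the word 2 (16.7%) had an optimal summit, and of the 20 without it 3 (15%). Among all coding genes the shares were 30.1% with the word and 18.9% without it. Pooled calls were present at 10 of 12 ubiquitous genes with the word (83.3%) and 10 of 20 without it (50%), against 64.8% and 46.1% of all coding genes. These counts carry no test.

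Genes that act with the proteasome were described from a list of 31 symbols, of which 29 matched the annotation. Of these, 9 (31%) had an optimal promoter summit and 20 (69%) a pooled call, against 19.9% and 47.8% of all coding genes. Pomp, whose product assembles the core particle, ranked 767 in the optimal list and 626, 816, 629 and 1277 in replicates 1 to 4. In the optimal list it lay above every subunit gene, while in replicate 4 Prosalpha4 (970) and Rpn5 (1121) ranked above it. RpS27A, which encodes ubiquitin fused to a ribosomal protein, ranked 581, and 689, 565, 708 and 640 in the replicates. The stress factor gene cnc, an activator of proteasome genes, ranked 2125, and Keap1, which restrains the factor, 3694. PI31, a proteasome regulator (rank 3820), its partner ntc (3361), the ubiquitin gene Ubi-p63E (3782), the deubiquitinase gene Uch-L5 (3997) and CSN8 (4606) complete the 9. The COP9 signalosome is a complex related to the lid, and of its 8 matched genes 1, CSN8, had an optimal summit and 4 a pooled call.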

How the data were processed

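The deposited files are narrowPeak lists of 4 replicates labelled as biological, a pooled list and an optimal list, on dm6 per the notes that came with the samples. The deposited signal is a coverage score from the caller, on a scale that differs between lists, and was used only to rank calls within a list. Each call also has a deposited −log10 q-value. The deposited summit offset gave summit positions. Per the same notes, each list was called against 1 shared control set and the authors' optimal list came from a reproducibility step on the others. Its 5211 peaks are the 5211 strongest pooled calls. The aligner, the caller and their versions are not given in the sources used here. The files give no depth, so no value was weighted by it.

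TSSs came from the Ensembl 115 annotation and sequence from the RefSeq genome of the same assembly, and no call ended beyond its arm. A gene had a promoter call when a summit lay within 500 bp of any of its TSSs, and 1 call could serve several genes. Calls were used as whole lists, as each replicate's strongest 5211, and with a −log10 q above 2. Shares carry 95% exact Clopper-Pearson intervals, and a count of 0 allows 3 counts of the total. Both cover counting error only. The only test was an exact sign-flip permutation test over the 4 replicates. With all 4 differences of the same sign its p is fixed at 0.125, whatever their spread. Gene counts carry no test. Gene copies were aligned end to end, and identity is over alignment columns. Python 3.11.15 was used with numpy 2.4.6, pandas 2.3.3 and scipy 1.17.1, and the assignment of summits was checked on simulated data.

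The member genes, lists and words were chosen with earlier results of these data known. Named genes are those with an optimal promoter summit, the 5 ubiquitous genes next by pooled rank, paralogs with a call in the optimal or pooled list or among a replicate's strongest calls, and genes with no call. Prosbeta1, Prosbeta2, Prosbeta5, Rpt3R, Prosbeta2R2 and genes in small counts were named after their values were seen. Alternatives were other windows, the 5′-most TSS, interval overlap, stricter or other call rules, ranks by q and each replicate left out. Leaving out Prosalpha1 and Prosalpha1R was added after seeing the data.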

Additional observations from a re-analysis of the deposited data

Results flagged for a closer look

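Of 38 sets of 4 replicate values looked at, 5 held 1 replicate far from the others. Chance alone flags about 1 in 20 sets of continuous values. That rate does not hold for small counts, where 3 equal values and 1 that differs are always flagged. The number of flags can therefore not be set against it. The number of paralogs with a promoter call in the whole lists was 0 in replicate 4 and 1 in each of the others. The number of non-ATPase base subunits with a call in the whole lists was 4 in replicate 3 and 3 in each of the others. Among the strongest calls, 1 beta ring gene, Prosbeta5, had a promoter call in replicate 3 and none did in the others. The best-ranked summit at Rpn10, the gene of a ubiquitin receptor, lay at -250 bp from the TSS in replicate 4, and at 26, -14 and -11 bp in replicates 1 to 3. Replicate 4 also had a lower-ranked summit, 13 bp from the Rpn10 TSS, so the distance that stands apart is that of the stronger summit there. The best Rpn8 call ranked 6990 in replicate 1, and 4069, 3755 and 4265 in replicates 2 to 4. Rpn8 has 2 TSSs, and the replicate 1 summit, at 24399602 on 2R, belonged to the upstream one. The summits of replicates 2 to 4, at 24402843, 24402634 and 24402633, belonged to the other. Of these, the summits of replicates 3 and 4 lay closer to a Slik TSS than to Rpn8. The rank that stands apart is thus that of a call at a different TSS. The 3 sets of counts each stand apart by a single gene.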

How the results depend on the processing

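The count of 5 genes with an optimal promoter summit was 2 among optimal peaks above the median signal. It was 0 with peaks held by all 4 replicates. For all coding genes the share fell from 19.9% to 11.5% and 9.9%. With peaks held by the other replicates when each was left out, the count of 5 became 0 to 1. The share of all coding genes was 10.4 to 11.9% there. The pooled count of 21 was 7 with a −log10 q above 2, while the share of all coding genes went from 47.8% to 23%. The mean of 5 genes per replicate became 7.75 with a −log10 q above 2, and 4.33 to 6 without each replicate. For all coding genes the mean of 19.7% became 23.8%, and 19.6 to 19.9%. The median summit position of -190 bp, over 5 genes, was -20.5 bp in the strongest calls of replicate 1 (2 genes). It was -5 bp in those of replicate 3 (7 genes). The median was -97.5 bp in the pooled list (20 genes), -124 bp in the strongest calls of replicate 2 (6 genes) and -261 bp in those of replicate 4 (5 genes). These last values are within 1 SD over the replicates (118 bp). The genes differ between the lists, so the medians do not follow the same summits. All 5 optimal genes held at least 1 of the 8 words in the promoter window, and 3 did within the 101 bp centred on the summit. These stricter settings keep fewer calls or shorter windows by construction, and other causes were not tested. The ubiquitous minus paralog difference of 15.6 points was 56.2 points with the whole lists, 21.9 with a −log10 q above 2 and 13.5 to 18.8 without each replicate (exact p = 0.25, the smallest that 3 replicates allow). Where the paralog count is 0, as in the strongest calls, its sign shows no stability. Other windows, the 5′-most TSS, interval overlap and leaving out Prosalpha1 and Prosalpha1R, where run, changed the values by less than 1.5 times. No paired analysis was possible because the 4 replicates form 1 group. The unknown depth limits what an absent call can show.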
